A study of Mus musculus with 4 samples.

Results

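The 10 genes described here encode antioxidant defence enzymes: Sod1, Sod2, Sod3, Cat, Gpx1, Gpx3, Prdx1, Txnrd1, Nqo1 and Hmox1. They were chosen by gene symbol, and all 10 were found among the 32290 features of the tables. Their transcripts were measured by 10x Genomics 3' single-cell RNA sequencing of cells from mouse subcutaneous (SC) and visceral intraperitoneal (IP) adipose tissue. WT mice carried Tie2e-cre; TERT+/+; mTmG and KO mice carried Tie2e-cre; TERTfl/fl; mTmG, and all were males aged 7 months that had received high-fat diet for 5 months. Tie2e-cre is a recombinase driven by a Tie2 promoter that the study used as specific for endothelial cells, where floxed Tert was to be removed. The large classes described below were thus not the cells aimed at. Whether some of their cells had recombined was not examined here. The mTmG reporter, which switches from a red to a green membrane protein after recombination, was present in both genotypes. There was 1 library for each of the 4 groups (WT SC, KO SC, WT IP and KO IP), so differences between genotypes or depots had no replicate check. How many mice each library came from is not given in the sources used here.

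These enzymes act in sequence on reactive oxygen. The superoxide dismutases turn superoxide into hydrogen peroxide in the cytosol (Sod1), in mitochondria (Sod2) and outside the cell (Sod3), and the peroxide is then removed by catalase in peroxisomes (Cat), by glutathione peroxidases inside cells (Gpx1) and in extracellular fluid (Gpx3), and by the peroxiredoxin Prdx1. Txnrd1 uses NADPH to keep thioredoxin reduced, on which Prdx1 depends, Nqo1 reduces quinones, and Hmox1 breaks haem down to biliverdin, iron and carbon monoxide. Gpx1, Gpx3 and Txnrd1 contain selenocysteine. Prdx1, Txnrd1, Nqo1 and Hmox1 are textbook targets of NRF2 (Nfe2l2), a transcription factor that is held back by Keap1 until oxidants or electrophiles release it and that then binds antioxidant response elements. Obese adipose tissue is known for oxidative stress, and macrophages are known for high Hmox1 when they degrade haem.

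Promoter windows of RefSeq (build GRCm38.p6, 250 bases before to 50 bases after a transcript start) were held for 8 of the 10 genes, in 10 windows. Sod3 and Hmox1 are named only. The windows shown are those of Gpx3, which had the widest depot difference of the genes described here, Txnrd1, which was higher in KO in T-like cells of IP, and Prdx1, which differed little between genotypes. Capitals mark matches, on either strand, to the core of the antioxidant response element, TGACNNNGC, or to the AP-1 motif, TGANTCA. The sequences are from the plus strand, 5′ to 3′, at chr11:54902604-54902903 for Gpx3, chr4:116685349-116685648 for Prdx1 and chr10:82858956-82859255 for the second of the 3 Txnrd1 windows.
Gpx3: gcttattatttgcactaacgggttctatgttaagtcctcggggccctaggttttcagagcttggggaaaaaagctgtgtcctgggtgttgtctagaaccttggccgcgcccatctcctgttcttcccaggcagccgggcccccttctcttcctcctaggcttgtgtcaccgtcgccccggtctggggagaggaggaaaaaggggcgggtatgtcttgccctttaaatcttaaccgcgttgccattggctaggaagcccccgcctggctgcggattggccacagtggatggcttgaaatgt
Prdx1: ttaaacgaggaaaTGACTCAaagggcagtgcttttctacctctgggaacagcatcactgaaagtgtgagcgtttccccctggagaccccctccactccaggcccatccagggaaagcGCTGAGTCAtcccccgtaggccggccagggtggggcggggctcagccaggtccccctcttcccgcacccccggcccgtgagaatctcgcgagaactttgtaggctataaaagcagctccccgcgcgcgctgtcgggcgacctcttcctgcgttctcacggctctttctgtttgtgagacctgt
Txnrd1: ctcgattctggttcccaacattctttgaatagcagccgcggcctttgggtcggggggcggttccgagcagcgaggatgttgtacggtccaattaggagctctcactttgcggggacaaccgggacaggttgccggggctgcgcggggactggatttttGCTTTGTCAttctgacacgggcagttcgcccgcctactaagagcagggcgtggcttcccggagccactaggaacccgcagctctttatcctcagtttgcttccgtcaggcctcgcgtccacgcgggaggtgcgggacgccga
The Gpx3 window held neither motif. In the Prdx1 window the response element core stood as GCTGAGTCA at position -133 from the start, overlapping an AP-1 match at -131, with a further AP-1 match at -237. The Txnrd1 window held GCTTTGTCA at -92, and the other windows of Txnrd1 held no match. Of the windows not shown, that of Sod1 held GCGTGGTCA at -56, and those of Sod2, Cat, Gpx1 and Nqo1 held neither motif. Over all 32851 promoter windows of the same length, 12.4% held the response element core and 7.81% the AP-1 motif. The GC box GGGCGG, held by 35.7% of all windows, was found in 1 window of each of the 8 genes, with 4 matches for Sod1 and for Sod2, and the E-box CACGTG (7.15% of all windows) in none of the 10. These matches describe letters only.

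The tables held 4927 barcodes, of which 4113 were kept as cells, with a median of 6706 to 13047 UMIs per cell in the 4 libraries. Tert itself had 3 UMIs in WT and 2 in KO of SC, and 8 and 9 in WT and KO of IP, too few to check the genotypes. Cells were put into classes by the UMIs of marker genes, and 417 cells (10.1%) fell in no class. Adipose stromal cell-like cells (ASC-like) numbered 101, 198, 281 and 204 and T-like cells 452, 1151, 111 and 121, where 4 values in a row stand, here and below, for WT SC, KO SC, WT IP and KO IP. B-like cells numbered 301 and 459 in SC but 22 and 24 in IP, and macrophage-like cells reached 53 in WT IP and at most 12 elsewhere. Endothelial-like cells, the class nearest to the targeted cells, numbered 1, 3, 17 and 5, too few for any comparison of genotypes. No cell passed as an adipocyte. Dcn, a proteoglycan of stromal cells that was not used for the classes, had 9179 to 13316 CPM (counts of a gene per 1000000 UMIs of a class) in ASC-like cells and 2.63 to 14.4 CPM in T-like cells. The 17 endothelial-like cells of WT IP had 1432 CPM of Lyve1, 921 of Prox1 and 505 of Flt4, genes known from lymphatic endothelium. Their levels are thus not to be read as those of blood vessel endothelium.

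KO SC and WT IP shared 93 cell barcodes, whereas other pairs of libraries shared 0 or 1. Of these, 72 were ASC-like in both libraries. Over all 93 the median was 601 UMIs in KO SC and 35392 in WT IP. The UMIs of a shared barcode in KO SC were a median of 1.71% of those in WT IP. The 10th and 90th percentiles of this share were 1.59% and 1.83%, and its cause was not tested. The shared barcodes held 2.61% of the ASC-like UMIs of KO SC and 45.5% of those of WT IP. Values are given with all cells and, for part of the results on ASC-like cells, also without the shared barcodes in either library. That left 125 cells in KO SC and 205 in WT IP. Of 38 ratios of the 10 genes in ASC-like cells, 37 stayed on the same side of the rule used here without them. The median depth of ASC-like cells in KO SC was 5724.5 UMIs with the shared barcodes and 14785 without, while the other libraries had 20229 (WT SC), 23174 (WT IP) and 21923 (KO IP).

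The first question was which cell classes carried each transcript. ASC-like, T-like and B-like cells were compared over the 4 libraries on summed UMIs, each class against the mean of the other classes, and p-values measure the spread over libraries that differ in depot and genotype. All 9 genes with enough counts were higher in ASC-like cells, where 39.1% of the 11057 genes tested were higher and 30.3% lower, and Nqo1 was not tested. The median log2 difference of the 9 genes was 0.90, beside 0.12 over all genes tested. In T-like cells Sod1 was higher and Cat, Gpx3 and Hmox1 were lower (all genes: 22.8% higher and 21.3% lower), with a median of -0.45 beside -0.06. In B-like cells Sod1, Sod2, Gpx3, Txnrd1 and Hmox1 were lower and 0 were higher (all genes: 21.1% higher and 27.6% lower), with a median of -1.33 beside -0.11. The call of Sod1 in T-like cells (edgeR, Benjamini-Hochberg adjusted p = 0.0246) was lost without WT SC (adjusted p = 0.244) or KO SC (adjusted p = 0.172). That of Sod2 in ASC-like cells (edgeR, Benjamini-Hochberg adjusted p = 0.0260) was lost without KO IP (adjusted p = 0.0587), as was that of Sod2 in B-like cells (adjusted p = 0.0537). Gpx3 in T-like cells (edgeR, Benjamini-Hochberg adjusted p = 0.00355), which rests on 8 UMIs in those cells, lost its call without WT SC, going from -5.17 to -2.81 (adjusted p = 1). With no filter on low counts, Gpx1 (adjusted p = 0.093) and Sod2 (adjusted p = 0.251) lost their calls in ASC-like cells. Among these 3 classes Sod3, Gpx3 and Hmox1 were found almost exclusively in ASC-like cells, whereas Sod1, Sod2, Cat, Gpx1, Prdx1 and Txnrd1 were found in each. Coordinates below are those of build GRCm38, in which all 10 genes are protein coding.

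Among the superoxide dismutases, Sod3 (ENSMUSG00000072941, chr5:52363791-52371418, plus strand) was the most restricted. In ASC-like cells it stood at 160, 117, 154 and 222 CPM. Sod3 had 0 UMIs in T-like and B-like cells of every library and in macrophage-like cells of WT IP. ASC-like cells were therefore at least 243, 369, 48.1 and 82.1-fold higher than T-like cells of the same libraries, when 0 UMIs are taken to allow 3, and at least 48.8-fold higher than macrophage-like cells in WT IP. Sod1 (ENSMUSG00000022982, chr16:90220754-90226329, plus strand), the cytosolic enzyme, had 78.1, 101, 66.8 and 89.3 CPM in ASC-like cells. T-like cells had 69.0, 72.4, 70.5 and 79.4 CPM and B-like cells 26.1, 31.6, 45.1 and 41.4 CPM, so that B-like cells were lowest in every library. The log2 difference of B-like from the other classes was -1.33 (edgeR, Benjamini-Hochberg adjusted p = 7.71e-05), while ASC-like and T-like cells differed beyond counting error in KO SC but not in the other libraries. Sod2 (ENSMUSG00000006818, chr17:13006846-13040063, plus strand), the mitochondrial enzyme, was flatter, at 72.7 to 87.5 CPM in ASC-like, 63.9 to 85.7 in T-like and 41.4 to 65.5 in B-like cells. Its highest level was the 157 CPM of macrophage-like cells in WT IP, which was above T-like cells of that library by 0.91 on the log2 scale [0.51, 1.33] (here and below, brackets hold exact 95% intervals, Poisson for CPM, conditional binomial for ratios and Clopper-Pearson for shares, which cover counting error only).

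The peroxide-removing enzymes divided in the same way. Gpx3 (ENSMUSG00000018339, chr11:54902453-54910377, plus strand) had 294, 616, 999 and 913 CPM in ASC-like cells, against 0, 2, 1 and 5 UMIs in all T-like cells of the same libraries. Its log2 difference in ASC-like cells was 9.67 ± 0.42 (SE, 4 libraries; edgeR, Benjamini-Hochberg adjusted p = 3.32e-10). Gpx1 (ENSMUSG00000063856, chr9:108338903-108340343, plus strand), the intracellular glutathione peroxidase, was found in every class. ASC-like cells had 195, 230, 239 and 269 CPM, T-like cells 175, 163, 175 and 207, and B-like cells 211, 137, 161 and 212. In WT SC neither neighbour in the order B-like, ASC-like and T-like differed beyond counting error. In the other libraries ASC-like cells were above T-like cells beyond it, by 0.50, 0.44 and 0.38 on the log2 scale, and in KO SC T-like cells were above B-like cells by 0.24. The difference of ASC-like cells from the other classes was 0.45 (edgeR, Benjamini-Hochberg adjusted p = 0.0114). The 53 macrophage-like cells of WT IP stood far above them at 1591 CPM [1512, 1673], higher than ASC-like cells by 2.74 on the log2 scale [2.63, 2.84].

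Cat (ENSMUSG00000027187, chr2:103453849-103485160, minus strand) had 31.0 to 41.2 CPM in ASC-like and 14.5 to 22.5 CPM in T-like cells, and T-like cells were lower than the other classes by a log2 difference of -0.96 (edgeR, Benjamini-Hochberg adjusted p = 0.00127). Prdx1 (ENSMUSG00000028691, chr4:116685544-116700822, plus strand) had 424, 380, 593 and 560 CPM in ASC-like, 310, 303, 216 and 266 in T-like and 228, 249, 245 and 398 in B-like cells. ASC-like cells had more Prdx1 than T-like and B-like cells in all 4 libraries. In WT IP they stood between the 678 CPM of 17 endothelial-like cells and the 437 CPM of macrophage-like cells. Counts of Prdx1, Sod1 and Sod2 are uncertain. Of the 25-base words in the last 300 bases of their transcripts, 48.7%, 40.6% and 19.9% also occur in other genes, for Prdx1 and Sod1 in pseudogenes alone. Sod1 also overlaps Scaf4 on the opposite strand, and introns of Txnrd1 overlap Gm38560 and Gm47073 on the opposite strand and Eid3 on the same strand.

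Of the remaining enzymes, Txnrd1 (ENSMUSG00000020250, chr10:82833951-82897712, plus strand) was graded. It had 125, 131, 105 and 139 CPM in ASC-like cells, 46.7, 57.2, 54.5 and 108 in T-like cells and 18.6, 14.1, 25.8 and 31.0 in B-like cells. In both SC libraries the order ASC-like, T-like, B-like held beyond counting error at each step. Macrophage-like cells of WT IP had 222 CPM of Txnrd1, above ASC-like cells by 1.09 on the log2 scale [0.85, 1.31]. The log2 difference was 1.92 ± 0.17 (SE) in ASC-like cells (edgeR, Benjamini-Hochberg adjusted p = 3.26e-07) and -2.25 in B-like cells (adjusted p = 4.63e-06). Hmox1 (ENSMUSG00000005413, chr8:75093621-75100589, plus strand) had 50.9, 120, 108 and 261 CPM in ASC-like cells, and 4, 8, 1 and 2 UMIs in all T-like and 1, 2, 0 and 1 UMIs in all B-like cells. Its log2 difference in ASC-like cells was 6.78 ± 0.22 (SE; edgeR, Benjamini-Hochberg adjusted p = 2.17e-11). Macrophage-like cells of WT IP had 314 CPM [279, 351] of Hmox1, so that ASC-like cells of that library stood at 0.344 of the macrophage-like level. Nqo1 (ENSMUSG00000003849, chr8:107388225-107403206, minus strand) had 4, 2, 9 and 18 UMIs in all ASC-like cells, 4, 1, 0 and 1 in T-like cells and 0 in B-like cells.

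**Figure D1:**
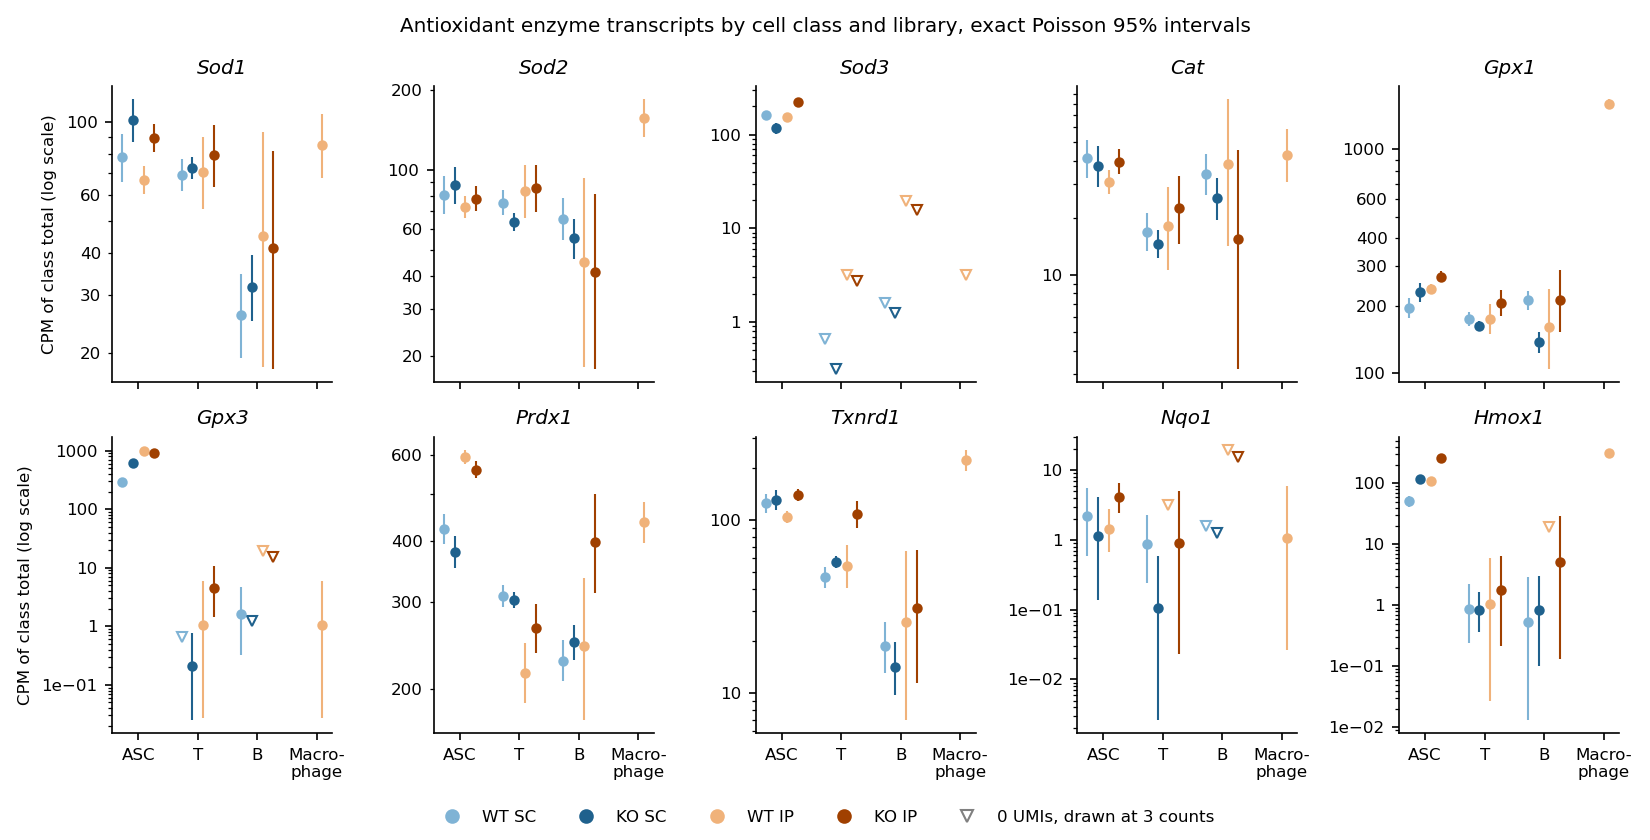
CPM of the class total on a log scale (vertical) for each of the 10 genes in ASC-like, T-like, B-like and macrophage-like cells (horizontal), 1 point per library with its exact Poisson 95% interval and open triangles at 3 counts where no UMI was found. Sod3 and Gpx3 stand high in ASC-like cells alone, Gpx1 peaks at 1591 CPM in macrophage-like cells, and Txnrd1 steps down from ASC-like to T-like to B-like cells.

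The level of stromal transcripts in T-like cells was taken as a measure of free RNA. The class gate leaves out cells with a large share of ASC markers, so this measure can fall short of the true level. Dcn and Col3a1 together, both abundant in stromal cells, reached 0.0338% to 0.111% of their ASC-like level in T-like cells. Hmox1 reached 0.692% to 1.72% and Gpx3 0 to 0.494% of theirs. Nqo1, on 4, 1, 0 and 1 UMIs in T-like cells, stood at 40.4%, 9.40%, 0% and 22.2%. The class gate itself keeps the 6 macrophage markers it used low in ASC-like cells, so markers outside the gate were read. Csf1r had 2.17, 1.12, 11.9 and 5.20 CPM in ASC-like cells, Cd68 1.63, 3.93, 5.16 and 2.94 CPM and Lyz2 0.542, 0.561, 2.74 and 0.905 CPM, against 349, 420 and 10305 CPM in macrophage-like cells of WT IP. These levels were highest in WT IP. Their part in the values of Hmox1 was not tested.

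The next question was whether KO and WT differed within a depot. A gene is called different below when its CPM differed by at least 1.5 times, the interval of the ratio left out 1 and both libraries together held at least 20 UMIs. Log2 ratios were taken after adding 0.5 UMI. Over the 5 class and depot comparisons that could be made, 6 ratios met the rule. In ASC-like cells of SC, 2 of 9 genes were higher in KO (all genes: 5.09%) and 0 lower (4.81%), and the median log2 ratio was 0.12 beside -0.0023 over all genes. In ASC-like cells of IP, 2 of 10 were higher (all genes: 7.29%) and 0 lower (4.41%), and the median was 0.38 beside 0.05. Hmox1 was the gene that was higher in KO in both depots.

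Hmox1 in ASC-like cells had 50.9 CPM [41.2, 62.3] in WT and 120 [104, 137] in KO of SC, and 108 [99.7, 116] in WT and 261 [246, 276] in KO of IP. WT SC was lowest, KO SC and WT IP overlapped, and KO IP was highest. KO was 2.35-fold higher in SC, a log2 ratio of 1.23 [0.88, 1.60], and 2.42-fold higher in IP, a log2 ratio of 1.28 [1.14, 1.42]. Without the shared barcodes the IP value was 1.04. A single ASC-like cell of KO IP held 364 of the 1153 Hmox1 UMIs (31.6%). That cell had 54835 UMIs in all, with 523 UMIs of ASC markers and 0 of macrophage markers, and it also held the most Prdx1 and Txnrd1 UMIs of its class. Without the cell of each library with most Hmox1 UMIs the log2 ratio in IP was 0.86. When each cell was thinned to 5000 UMIs, Hmox1 was found in 16.0% [8.55, 26.3], 26.0% [17.9, 35.5], 27.7% [22.1, 33.9] and 33.1% [26.1, 40.8] of ASC-like cells (26, 94, 43 and 35 shallower cells left out), against 0.0959% to 1.03% of T-like cells. The intervals of these shares overlap between genotypes in both depots. Without thinning the shares were 33.7%, 25.8%, 54.8% and 56.9%, at unequal depth.

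Over all ASC-like cells, Gpx3 was higher in KO in SC and not in IP. With 294 CPM [270, 320] in WT SC and 616 [580, 653] in KO SC, KO was 2.10-fold higher, a log2 ratio of 1.07 [0.92, 1.22]. In IP, 999 CPM [974, 1024] in WT and 913 [885, 941] in KO gave a log2 ratio of -0.13 [-0.19, -0.07], or -0.33 without the shared barcodes. Sod3 also took opposite directions, without reaching 1.5-fold, with a log2 ratio of -0.45 [-0.72, -0.19] in SC and 0.53 [0.40, 0.66] in IP. The difference between depots was not tested for either gene. In Pi16/Dpp4 cells, a state described below, Gpx3 was higher in KO in both depots, at 1.46 in SC and 1.56 in IP. The IP value was lower without the shared barcodes. Thinned to 5000 UMIs, Gpx3 was found in 40.0%, 49.0%, 81.5% and 77.5% of ASC-like cells and 0 to 2.80% of T-like cells, and Sod3 in 56.0%, 39.4%, 47.9% and 58.0% of ASC-like cells. Without thinning the shares in ASC-like cells were 47.5%, 43.4%, 85.4% and 82.8% for Gpx3 and 71.3%, 43.4%, 77.9% and 77.9% for Sod3. Nqo1 was the other gene called in IP, and it rested on 9 UMIs in WT and 18 in KO, a log2 ratio of 1.45 [0.26, 2.83] that met the rule with all cells and was 0.92, no longer past it, without the shared barcodes.

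The other genes of the set differed by less than 1.5 times in ASC-like cells. Sod1 had log2 ratios of 0.37 [0.05, 0.70] in SC and 0.42 [0.22, 0.62] in IP, and Gpx1 of 0.24 [0.03, 0.45] and 0.17 [0.06, 0.28]. Txnrd1 had 0.07 [-0.20, 0.34] in SC and 0.41 [0.25, 0.57] in IP, and 0.26 in IP without the cell with most of its UMIs. The values of Sod1, Gpx1 and Txnrd1 in SC turned negative when each cell was weighted equally, at -0.06, -0.55 and -0.44. Equal weighting counts the 73 shared barcodes among the 198 ASC-like cells of KO SC. Outside them lay 179 of 180 Sod1, 405 of 410 Gpx1 and all 234 Txnrd1 UMIs of KO SC. Equally weighted values without them are not given, and their part in the change was not tested. Prdx1 lay at -0.16 [-0.31, -0.01] and -0.08 [-0.16, -0.01]. Sod2 and Cat had intervals that held 0 in SC, and in IP Sod2 stood at 0.10 [-0.10, 0.31] and Cat at 0.35 [0.05, 0.66].

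Other measures also differed between the libraries. Of 18 genes linked to tissue dissociation, 7 were higher in KO in ASC-like cells of SC, with a median log2 ratio of 0.31, and 0 lower (all genes: 5.09% and 4.81%, median -0.0023). In IP 0 of them were higher and 4 lower, with a median of -0.38 (all genes: 7.29% and 4.41%, median 0.05). Ier2, an immediate early gene, had 266 CPM in WT SC and 476 in KO SC, and Hspa1a, a heat shock gene, 319 CPM in WT IP and 86.9 in KO IP. Haemoglobin made up 0.723%, 0.00348%, 0.0329% and 0.00629% of ASC-like UMIs. The part of dissociation, depth or haemoglobin in the ratios of Hmox1 and Gpx3 was not tested.

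In lymphocytes Txnrd1 and Gpx1 were called, each in a single comparison. T-like cells of SC gave 0 of 6 genes higher (all genes: 2.64%) and 0 lower (9.58%), with a median log2 ratio of -0.07 beside -0.13 over all genes. B-like cells of SC gave 0 of 6 higher (2.54%) and 1 lower (5.89%), with a median of -0.32 beside -0.09. T-like cells of IP gave 1 of 6 higher (11.4%) and 0 lower (3.64%), with a median of 0.27 beside 0.14. In T-like cells the median of all genes was thus itself off 0, and the ratios are to be read against it. Under median-of-ratios scaling the calls over all genes, higher and lower, went from 297 and 1079 to 498 and 651 in T-like cells of SC, from 226 and 523 to 350 and 332 in B-like cells of SC, from 899 and 287 to 575 and 451 in T-like cells of IP and from 896 and 542 to 715 and 709 in ASC-like cells of IP.

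Txnrd1 was the gene called in T-like cells. Its level was 46.7 CPM [40.6, 53.4] in WT and 57.2 [52.5, 62.2] in KO of SC, and 54.5 [40.6, 71.6] in WT and 108 [89.7, 129] in KO of IP. KO IP stood apart from the other libraries, whose levels lay close together. KO was 1.98-fold higher in IP (51 UMIs in WT and 120 in KO), a log2 ratio of 0.98 [0.51, 1.49]. In SC the ratio was 0.29 [0.06, 0.53]. The CD4 cells of IP, set by Cd4 UMIs, held 17 of the 51 UMIs of WT and 14 of the 120 of KO, a ratio of -0.49 [-1.63, 0.61] whose interval holds both directions. CD8 cells, set by Cd8a and Cd8b1, were too few in KO IP to compare, and CD4 and CD8 cells made up 29.7% and 32.4% of T-like cells in WT IP and 24.8% and 22.3% in KO IP. In SC the ratios were 0.03 [-0.42, 0.49] in CD4 and -0.20 [-0.60, 0.22] in CD8 cells. With a looser class gate of at least 2 marker UMIs from 1 marker and 50% of marker UMIs, the IP value was 0.34 and no longer past the rule. Gpx1 was the gene called in B-like cells of SC, at 211 CPM [191, 233] in WT and 137 [123, 153] in KO, a log2 ratio of -0.62 [-0.84, -0.41]. Under median-of-ratios scaling it was -0.51 and no longer past 1.5-fold. The log2 ratios of Sod1, Sod2, Cat, Gpx1 and Prdx1 were -0.24 to 0.07 in T-like cells of SC and 0.04 to 0.30 in those of IP, and those of Sod1, Sod2, Cat, Prdx1 and Txnrd1 were -0.43 to 0.27 in B-like cells of SC. Sod3, Gpx3, Nqo1 and Hmox1 had under 20 UMIs in each of these lymphocyte comparisons.

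**Figure D2:**
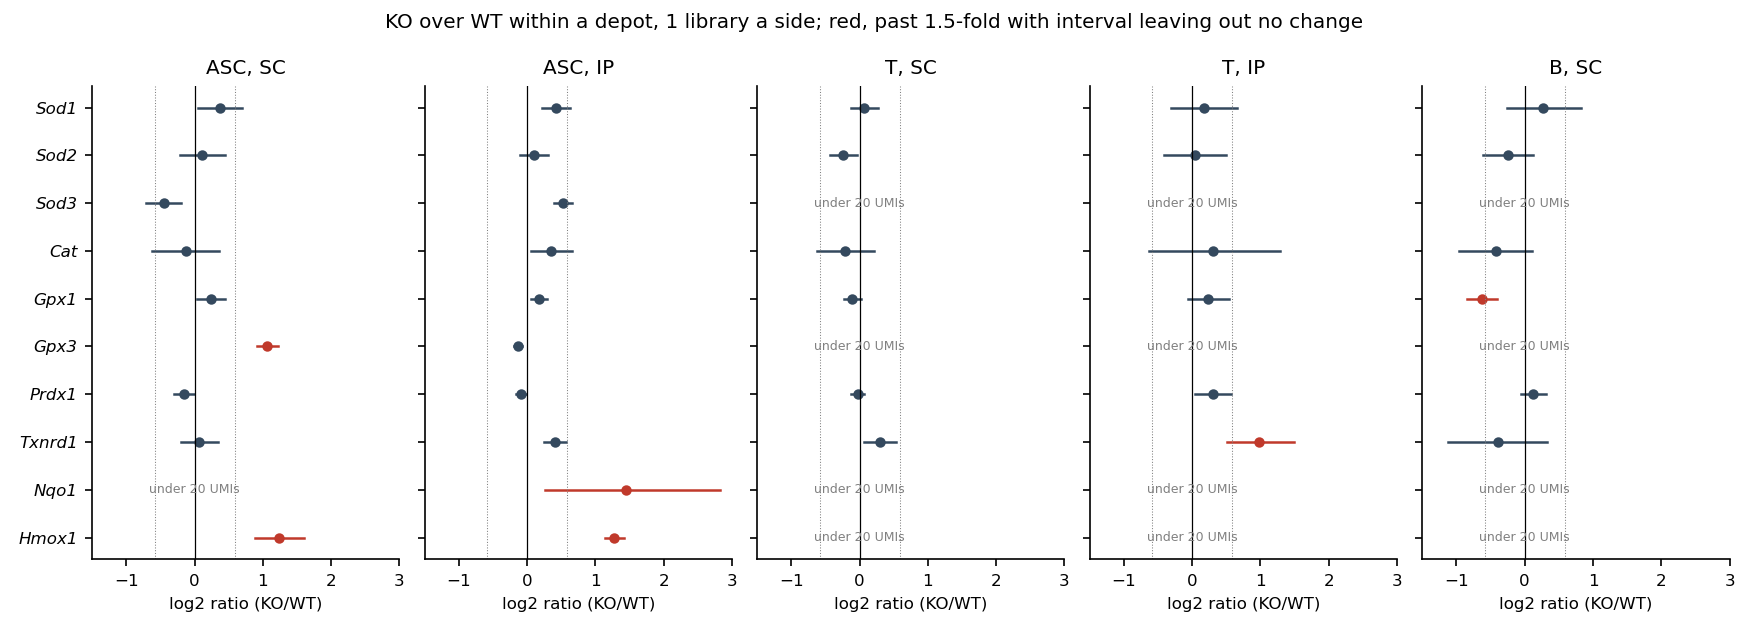
Log2 ratio of KO over WT (horizontal) for the 10 genes (vertical) in ASC-like cells of SC and IP, T-like cells of SC and IP and B-like cells of SC, with exact conditional 95% intervals and dotted lines at 1.5-fold. Red marks the 6 ratios past the rule: Gpx3 and Hmox1 in ASC-like cells of SC, Nqo1 and Hmox1 in those of IP, Txnrd1 in T-like cells of IP and, on the low side, Gpx1 in B-like cells of SC.

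The depots were then compared within a genotype. These comparisons use the same 4 libraries as those of the genotypes, so the values stand side by side and are not independent. In ASC-like cells of WT, 2 of 9 genes were higher in IP (all genes: 12.7%) and 0 lower (11.8%), with a median log2 ratio of -0.06 beside 0.07 over all genes. In ASC-like cells of KO, 2 of 10 were higher (14.8%) and 0 lower (10.5%), with a median of 0.39 beside 0.09. Hmox1 was the gene called in both genotypes, 2.10-fold higher in IP in WT, a log2 ratio of 1.07 [0.77, 1.41], and 2.17-fold in KO, a ratio of 1.12 [0.91, 1.34]. Without the shared barcodes the WT value was 1.31. Within the cell states described below, the IP over SC ratio of Hmox1 in Icam1/Col4 cells was 0.32 [-0.06, 0.75] in WT and 0.51 [0.22, 0.82] in KO, both under 1.5-fold, and in Pi16/Dpp4 cells 0.96 [0.30, 1.64] and 1.45 [1.13, 1.79]. The 0.51 of Icam1/Col4 cells in KO includes the KO IP cell that held 364 of the 901 Hmox1 UMIs of that set. The 0.96 of Pi16/Dpp4 cells in WT rests on 42 UMIs in WT IP, most of them in shared barcodes. Without those barcodes the WT IP level of that state was lower, and the depot ratio without them is not given here. Icam1/Col4 cells made up 39.6%, 47.0%, 86.1% and 74.0% of ASC-like cells, shared barcodes included.

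Gpx3 had the widest depot difference, with 294 CPM in SC and 999 in IP of WT. This was 3.40-fold, a log2 ratio of 1.76 [1.64, 1.89], and 1.96 without the shared barcodes. In KO the levels were 616 and 913 CPM, a ratio of 0.57 [0.47, 0.67] that fell just short of 1.5-fold. Sod3 had 160 CPM in SC and 154 in IP of WT, a log2 ratio of -0.06 [-0.24, 0.14], within counting error. In KO it was 1.90-fold higher in IP, a ratio of 0.93 [0.71, 1.15]. Prdx1 was higher in IP in both genotypes without reaching 1.5-fold, at 0.48 [0.37, 0.60] in WT and 0.56 [0.43, 0.68] in KO. Gpx1 followed at 0.29 [0.12, 0.46] and 0.23 [0.06, 0.39]. Sod1, Sod2, Cat and Txnrd1 lay between -0.42 and -0.15 in WT and between -0.18 and 0.08 in KO, and Nqo1 had 2 UMIs in KO SC and 18 in KO IP, a ratio of 1.58 [-0.20, 5.01].

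In T-like cells of WT 0 of 6 genes were higher in IP (all genes: 9.13%) and 0 lower (6.42%), with a median of 0.09 beside 0.02. In KO 1 of 6 was higher (24.6%) and 0 lower (5.31%), with a median of 0.39 beside 0.33, so the 6 genes lay near the shift of all genes. Txnrd1 was 1.90-fold higher in IP, a log2 ratio of 0.92 [0.62, 1.21], and 0.18 [-0.78, 0.94] in CD4 cells alone. Prdx1 had the lowest values, -0.52 [-0.74, -0.31] in WT and -0.19 [-0.37, -0.02] in KO. Under median-of-ratios scaling Txnrd1 in KO was 0.48 and no longer past the rule, and the calls over all genes went from 889 and 625 to 726 and 819 in WT and from 2655 and 573 to 1204 and 1648 in KO.

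**Figure D3:**
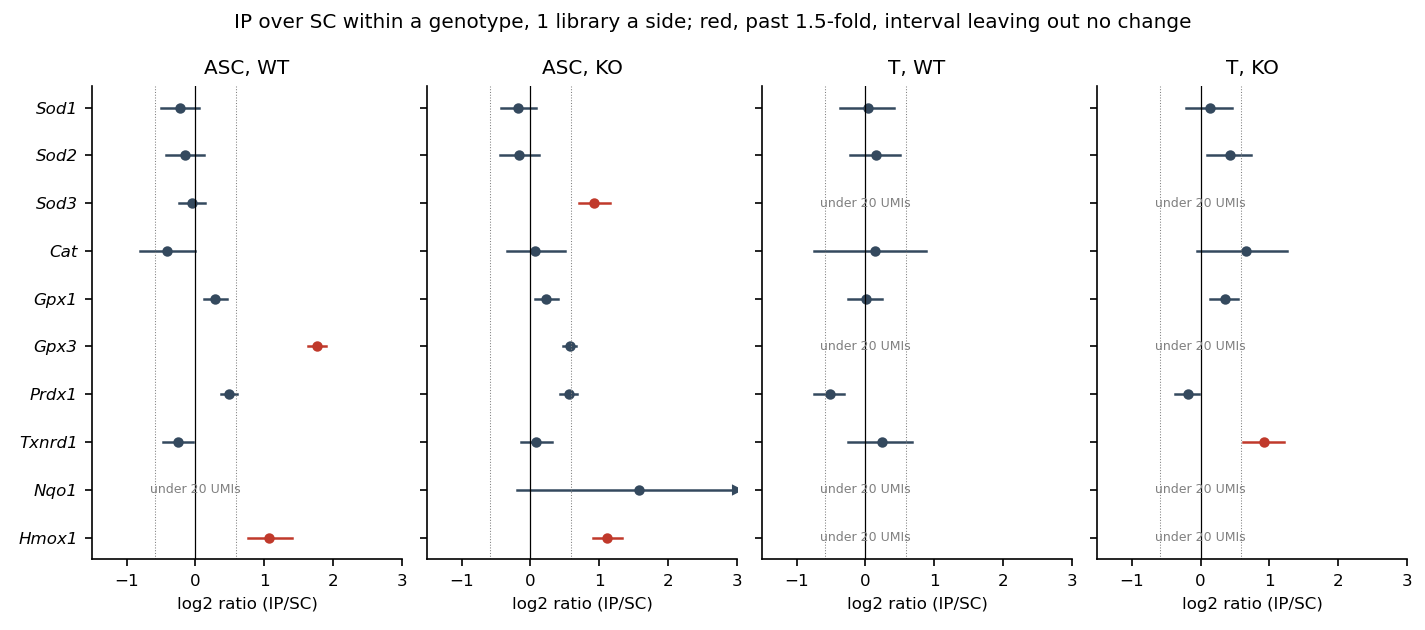
Log2 ratio of IP over SC (horizontal) for the 10 genes (vertical) in ASC-like and T-like cells of WT and of KO, with exact conditional 95% intervals and dotted lines at 1.5-fold. Gpx3 stands at 1.76 in ASC-like cells of WT and at 0.57 in KO, Hmox1 past 1 in both genotypes, and Txnrd1 at 0.92 in T-like cells of KO.

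ASC-like cells are not uniform, and their makeup differed between libraries. They were split by markers of early progenitors (Pi16, Dpp4, Cd55, Anxa3 and Sema3c, the Pi16/Dpp4 set) and of committed cells (Icam1, Col4a1, Col4a2, Col15a1 and Sparcl1, the Icam1/Col4 set). The Pi16/Dpp4 set took 60.4%, 48.5%, 11.4% and 22.5% of ASC-like cells, or 61, 96, 32 and 46 cells. These shares include the shared barcodes, 73 ASC-like cells in KO SC, all under 2000 UMIs, and 76 in WT IP. Shares without them are not given here, so the makeup of those libraries is uncertain. Gpx3 was lower in Pi16/Dpp4 cells of every library, at 180, 496, 167 and 494 CPM against 519, 888, 1102 and 1036 in Icam1/Col4 cells. The CPM values given here for both states include the shared barcodes. Hmox1 had 31.0, 90.7, 60.4 and 249 CPM in Pi16/Dpp4 cells against 90.6, 186, 114 and 265, with intervals of the ratio that held 0 in KO IP and not in the other libraries. The 265 CPM of KO IP includes 1 cell that held 364 of the 901 Hmox1 UMIs of that set. Prdx1 was lower in Pi16/Dpp4 cells too, with log2 differences of -0.16 to -0.52. The -0.16 is that of KO IP, where the same cell held 170 of the 1936 Prdx1 UMIs of Icam1/Col4 cells. The value without this cell is not given here. Gpx1 changed order, from a log2 difference of -0.75 [-1.05, -0.44] in WT SC to 0.62 [0.41, 0.82] in WT IP and 0.46 [0.27, 0.64] in KO IP.

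Within these states the genotype ratios of Hmox1 kept their direction. In Pi16/Dpp4 cells KO over WT was 1.54 [1.01, 2.12] on the log2 scale in SC and 2.03 [1.56, 2.55] in IP, and in Icam1/Col4 cells 1.03 [0.55, 1.53] and 1.22 [1.07, 1.37]. The IP value of Icam1/Col4 cells was 0.61 without the cell of each library with most Hmox1 UMIs. The WT side of the IP value in Pi16/Dpp4 cells had 42 UMIs, of which 9 were left without the shared barcodes, and the value was then 3.45 [2.57, 4.67], or 3.01 [2.33, 3.85] with all barcodes but without the cell with most UMIs. For Gpx3 the KO over WT values in Pi16/Dpp4 cells were 1.46 [1.24, 1.69] in SC and 1.56 [1.27, 1.87] in IP, the latter 0.90 [0.60, 1.21] without the shared barcodes. In Icam1/Col4 cells they were 0.77 [0.57, 0.98] in SC and -0.09 [-0.15, -0.03] in IP. The log2 ratio of IP over SC for Gpx3 in WT was -0.11 [-0.45, 0.22] in Pi16/Dpp4 and 1.08 [0.92, 1.25] in Icam1/Col4 cells. Both include the shared barcodes. Without them the WT IP level of Gpx3 in Pi16/Dpp4 cells was higher, and the depot ratios without them are not given here. Sod3 had the same signs in both states, at -0.41 and -0.54 in SC and 0.67 and 0.48 in IP. Txnrd1 in Pi16/Dpp4 cells of IP had 29 UMIs in WT and 96 in KO, a ratio of 1.18 [0.59, 1.85]. The difference between the states was not tested for any gene.

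**Figure D4:**
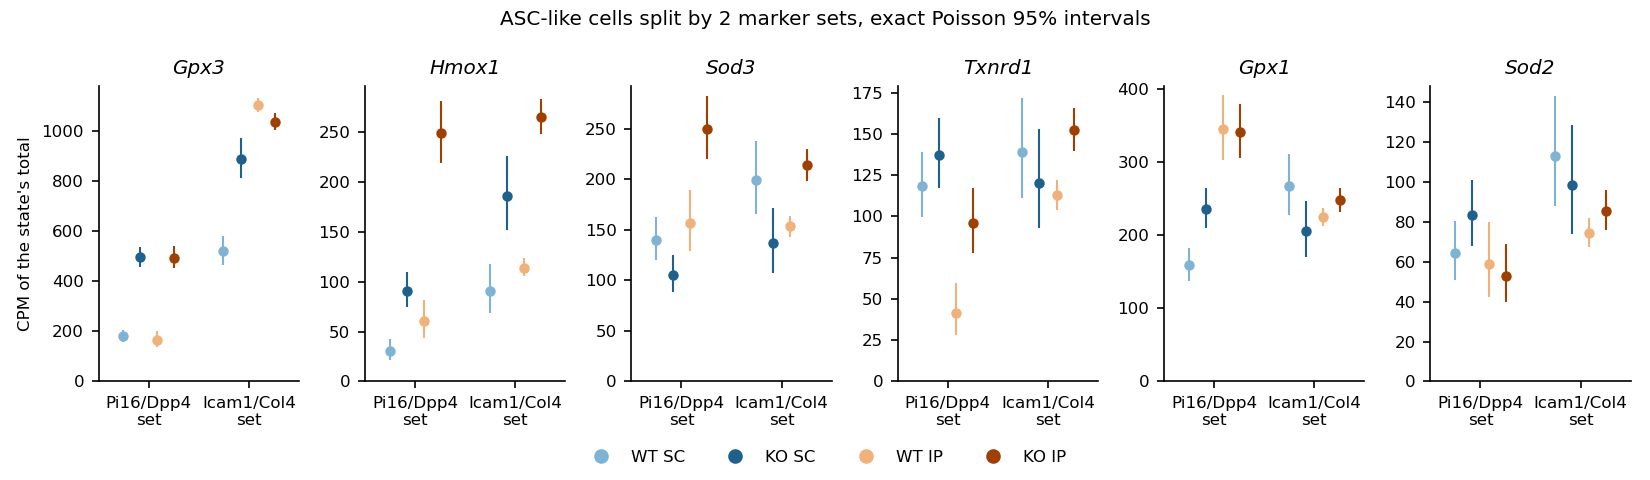
CPM of the state's total (vertical, linear axes from 0) for 6 genes in ASC-like cells of the Pi16/Dpp4 and the Icam1/Col4 set (horizontal), 1 point per library with its exact Poisson 95% interval. Gpx3 in Pi16/Dpp4 cells is at 180 and 167 CPM in WT and at 496 and 494 in KO, shared barcodes included. With all cells, Hmox1 is highest in KO IP in both states. Of the 901 Hmox1 UMIs in Icam1/Col4 cells of KO IP, 364 lie in 1 cell.

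Between the CD4 and CD8 sets of T-like cells, levels could be compared in 3 libraries. In WT SC Prdx1 was higher in CD4 than in CD8 cells by 0.39 [0.22, 0.55] on the log2 scale and Gpx1 by 0.39 [0.14, 0.64]. In KO SC the values were 0.20 [0.07, 0.33] and 0.23 [0.05, 0.41], and Txnrd1 stood at 0.54 [0.18, 0.90], whereas in WT SC the interval of Txnrd1 held 0. In WT IP the intervals of all 3 genes held 0.

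Genes that work with these enzymes were followed in 10 lists, the dissociation genes included. In ASC-like cells against the other classes, 8 of 8 glutathione transferases and 8 of 10 other peroxidases and partners were higher and 0 lower (all genes: 39.1% and 30.3%), with median log2 differences of 4.90 and 1.46 beside 0.12. Of NRF2 regulators 6 of 8 were higher and 1 lower, and the NADPH oxidase genes, which make superoxide in leukocytes, went the other way with 2 higher and 6 lower of 8 and a median of -4.02. In B-like cells 0 of the other peroxidases were higher and 9 of 10 lower, while 6 of 8 NADPH oxidase genes were higher and 2 lower (all genes: 21.1% higher and 27.6% lower). In KO against WT within ASC-like cells, NRF2 regulators gave 1 higher and 0 lower of 8 in SC and 0 of either in IP, with medians of 0.18 and 0.14. Over all genes 5.09% were higher and 4.81% lower in SC and 7.29% and 4.41% in IP, against which these counts and those of the lists that follow stand. Other peroxidases gave 0 higher and 1 lower of 10 in each depot, with medians of -0.25 and -0.28. Thioredoxin and glutathione genes gave 1 higher of 11 in SC and 2 of 12 in IP, with 0 lower, and NADPH-supplying genes 0 higher and 1 lower of 7 in SC and 2 higher and 1 lower of 7 in IP. Glutathione transferases gave 0 higher and 2 lower of 8 in SC and 1 of each of 9 in IP. Both metallothioneins compared were higher in SC, with a median of 0.77. Neither was called in IP, where both intervals lay below 0 and the median was -0.39. NADPH oxidase genes gave 0 higher and 1 lower of 3 in SC and 0 of 3 in IP. Haem and iron genes (6 in SC and 7 in IP) and genes of selenoprotein synthesis (7 in each) gave no call.

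Gclc, the catalytic subunit of the enzyme that limits glutathione synthesis, was called higher in KO in ASC-like cells of both depots. It had 84.6, 193, 63.7 and 115 CPM, log2 ratios of 1.19 [0.91, 1.47] and 0.85 [0.66, 1.05]. Its partner Gclm was called in IP, with 29.7 CPM in WT and 58.8 in KO, a ratio of 0.99 [0.71, 1.27]. The NADPH-supplying enzyme G6pdx was also called there, at 17.1 and 32.3 CPM, a ratio of 0.92 [0.55, 1.30]. Gstp1, a glutathione transferase, was lower in KO in ASC-like cells of both depots, with 29.8 and 4.49 CPM in WT SC and KO SC and 23.1 and 14.5 CPM in WT IP and KO IP, ratios of -2.66 [-4.01, -1.65] and -0.67 [-1.12, -0.24]. In T-like cells of IP, where Txnrd1 was higher, Gclc had 60.9 CPM in WT and 111 in KO, a ratio of 0.86 [0.40, 1.35], chosen after its values were seen. Between depots in ASC-like cells, Me1, another NADPH-supplying enzyme, was lower in IP in both genotypes, at -1.63 [-1.95, -1.30] in WT and -0.82 [-1.13, -0.50] in KO.

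Classes of few cells showed other levels, given without comparison of groups. In the 17 endothelial-like cells of WT IP Nqo1 had 26 UMIs in 8 cells, 88.6 CPM [57.9, 130], of which 15 UMIs lay in 1 cell, and Hmox1 had 317 CPM [256, 388]. Those cells, which carried the lymphatic markers given above, also had 678 CPM of Prdx1 and 457 of Gpx1. In the 24 dendritic cell-like cells of WT IP Sod1 had 153 CPM [118, 195] and Gpx1 940, with 3 UMIs of Hmox1. The 23 neutrophil-like cells of KO IP had 519 CPM [398, 665] of Txnrd1 and 268 of Hmox1, with 0 UMIs of Cat. Barcodes with at least 50% haemoglobin UMIs, 774 in all, carried the peroxide enzymes known from red cells. Gpx1 made up 0.880%, 1.57%, 1.24% and 1.06% of their other UMIs, and Hmox1 0, 0, 1 and 2 UMIs.

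The genes whose levels ran most like each enzyme were sought over 11 class and library units, as a description, since units share libraries and the classes dominate. Sod3 ran with Pla2r1, Osr1 and Cav1 (Pearson r of 0.999 each, on log2 of CPM plus 1, over 6653 genes). Gpx3 ran with Nfib, Gas1 and Arhgap32 (0.994, 0.993 and 0.992) and Hmox1 with Fgd4, Arhgef10l and Dab2 (0.989, 0.985 and 0.984). Gpx1 ran with C5ar1, Mrc1 and Clec4a2 (0.975, 0.969 and 0.967), genes known from myeloid cells. Class markers were not left out of this search, and Mrc1 is among those that set the macrophage-like class. Macrophage-like cells entered from WT IP alone. Txnrd1 ran with Plec, Capn2 and Raph1 (0.975, 0.975 and 0.964), Sod2 with Lgals3, Efhd2 and Mapkapk2 (0.981, 0.958 and 0.942) and Sod1 with Snx18, Fam129a and Trerf1 (0.976, 0.959 and 0.954). Cat ran with Dusp3, Acap2 and Snx1 (0.976, 0.965 and 0.958) and Prdx1 with Plcl1, Lrrc58 and Deptor (0.964, 0.963 and 0.949). Nqo1, whose mean was 1.07 CPM, ran with Fam120a, Ppp3r1 and Lars2 (0.951, 0.938 and 0.921).

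Of the 11 ratios of the 10 genes past the rule, 6 between genotypes and 5 between depots, 7 stayed past it under each of 14 other settings. Hmox1 did so in all 4 of its comparisons, with lowest values of 1.19 and 0.86 for KO against WT in SC and IP. Gpx3 in SC lay between 1.01 and 1.08, and Gpx3 between depots in WT between 1.73 and 1.96. Sod3 between depots in KO came closest to 1.5-fold, at 0.60. Nqo1 in ASC-like cells of IP, Txnrd1 in both T-like comparisons and Gpx1 in B-like cells each lost the call in at least 1 setting.

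**Figure D5:**
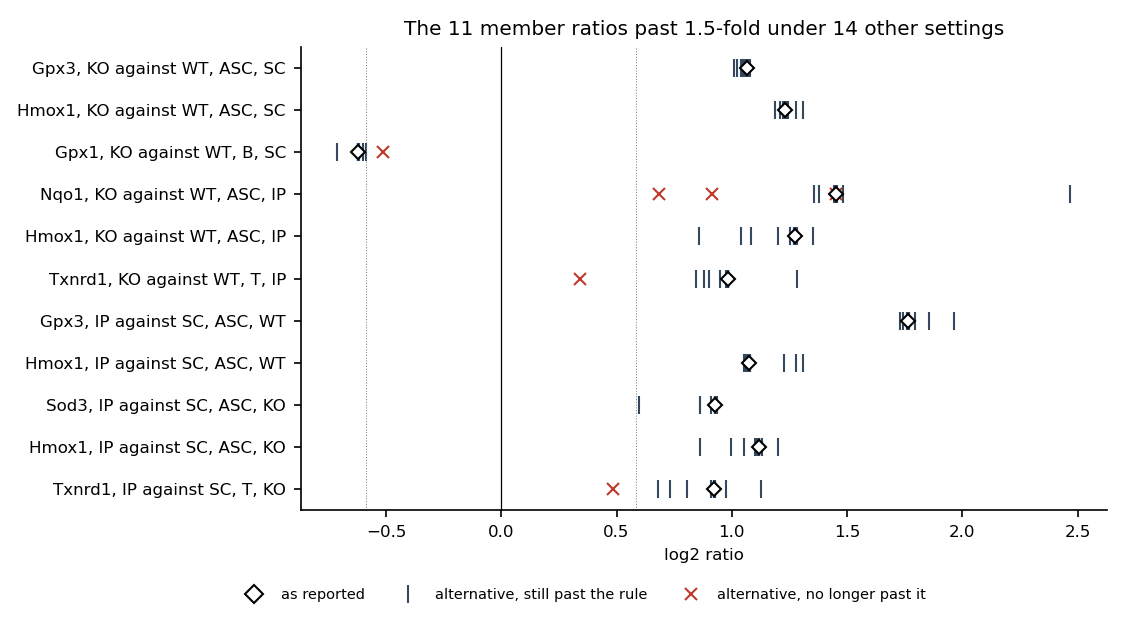
Log2 ratio (horizontal) of the 11 ratios past the rule (vertical) as reported (diamonds) and under 14 other settings (bars where still past the rule, red crosses where not), with dotted lines at 1.5-fold. The bars of Gpx3 and Hmox1 stay beyond the dotted line throughout, while Nqo1, both Txnrd1 values and Gpx1 each have at least 1 cross.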

How the data were processed

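SC and IP adipose tissue was profiled by single-cell RNA sequencing in 4 libraries. The labels speak of cells and also of a single nuclei suspension. Whether reads in introns were counted is not stated. The deposited tables hold raw counts (UMIs per gene and barcode), made by the authors with Cell Ranger, whose version 7.0.0 stands in the headers; the submitters' processing notes name mm10 and STAR 2.6. Cells needed 200 genes or more and no more than 25% mitochondrial UMIs, and Scrublet doublets were removed (0.556%). A class needed at least 3 marker UMIs from at least 2 markers and 75% of all marker UMIs. Counts were summed per class and library. Classes were compared with edgeR 4.0.16 (R 4.3.3) by its quasi-likelihood test, with library as a block and Benjamini-Hochberg adjustment at 0.05, marker genes left out; DESeq2 1.42.0 was an alternative. KO against WT and IP against SC had 1 library a side and no test, and needed at least 30 cells a class in both. The class fit and the ratio calls were tested on simulated data. The 10 genes and the lists were chosen with earlier results of these data known. Of other lists, genes called the same way in SC and IP of a class, and otherwise up to 4 a comparison with the largest absolute log2 ratio among those called, were named; for likeness the 3 genes with the highest Pearson r, of mean at least 20 CPM, were named for each enzyme. Coordinates are from the GENCODE annotation of GRCm38, matched by gene ID. Every sample column was mapped to a label.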

Additional observations from a re-analysis of the deposited data

Results flagged for a closer look

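Over all ASC-like cells, Sod3 and Gpx3 had KO to WT ratios of opposite sign in the depots. For Sod3 the SC and IP values were -0.45 and 0.53 on the log2 scale, and for Gpx3 they were 1.07 and -0.13. Within the Pi16/Dpp4 state the Gpx3 values had the same sign, 1.46 and 1.56, the latter lower without the shared barcodes. Within the Icam1/Col4 state they were 0.77 and -0.09. Whether the depots differ in these ratios was not tested, since each rests on single libraries.

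Levels above those of the larger classes were found in 3 classes too small for the comparisons. Nqo1 had 88.6 CPM in the 17 endothelial-like cells of WT IP, with 15 of 26 UMIs in 1 cell. Sod1 had 153 CPM in the 24 dendritic cell-like cells of WT IP, where macrophage-like cells followed at 85.2 CPM. Txnrd1 had 519 CPM in the 23 neutrophil-like cells of KO IP, where ASC-like cells followed at 139 CPM.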

How the results depend on the processing

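No paired analysis was possible because each group had 1 library, so that groups shared a single replicate number. A fit of genotype with depot as a term, which would leave 1 residual degree of freedom, was not run. Over 68 ratios and 14 alternatives, 3 of them added after the data were seen (cells of at least 2000 UMIs, and shared barcodes left out of KO SC or of both libraries), 931 of 952 pairs kept their call and 21 changed it. The count of genes past the rule between genotypes was 6 (5 to 7 under the alternatives). Between depots it was 5, but 8 with the looser gate and 8 with each cell weighted equally. Between classes it was 18 (16 to 20), and 16 to 18 when each library was left out in turn. Cat in B-like cells, not called at 0.15, was -0.062 without WT SC and -0.038 without WT IP, the range over the libraries left out reaching 0.253. Nqo1 in ASC-like cells of IP was 0.68 with each cell weighted equally, and it dropped out when at least 100 UMIs were required. Sod1 in the same cells was past the rule, at 0.75, with each cell weighted equally. Gpx3 between depots in KO was past it at 0.59 with doublets kept, 0.62 with the stricter gate and 0.66 without the cell with most of its UMIs. The causes were not tested. The low UMI numbers of Nqo1 in ASC-like cells left its ratios with wide intervals.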
